A study of Mus musculus with 22 samples.

Results

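The genes described are 9 mouse genes of lipid uptake, storage and efflux, namely *Lpl*, *Cd36*, *Fabp4*, *Fabp5*, *Plin2*, *Abca1*, *Abcg1*, *Apoe* and *Pparg*. They were chosen by symbol, and each symbol was matched to its Ensembl identifier in the count files. All 9 are among the 41388 genes counted, and all 9 were also among the 15043 genes that passed the filter on low counts. A cell that takes up fat first frees fatty acids from lipoproteins with lipoprotein lipase, moves them across the membrane with CD36 and carries them through the cytosol on fatty acid binding proteins. Excess lipid is kept in droplets coated by perilipin 2. Cholesterol leaves through the transporters ABCA1, to lipid-poor apolipoproteins, and ABCG1, to high density lipoprotein, and apolipoprotein E is among the acceptors. The nuclear receptor PPARγ controls the transcription of many of these genes, and macrophages are known for running the whole route, from uptake to efflux.

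Expression was measured by RNA sequencing of cells sorted from tumors of C57BL/6 mice at postnatal day 56, by labels that give the tumor as orthotopic MMTV-BO1, whereas the stated design gives subcutaneous tumors and the study's text a subcutaneous PyMT-BO1 line. All mice carried Osx-cre, a tetracycline-repressible Cre recombinase driven by the *Sp7* (Osterix) promoter, and the Ai9 reporter, which leaves cells of the Osx lineage and their progeny positive for tdTomato (TdTOSX+). Sorting by TdTOSX and by the leukocyte antigen CD45 gave 4 populations, TdTOSX single positive, double positive, CD45 single positive and double negative. Wild type mice (4 inoculated) and mice labelled Cdh2-cKO (6 inoculated), in which Cre acts on the N-cadherin gene *Cdh2*, each gave 2 libraries of TdTOSX single positive cells and 3 of every other population, 22 in all. By the study's text, the Osx-cre reporter mice of this experiment belong to those fed doxycycline until weaning, which holds Cre back, and the diet of the mice labelled Cdh2-cKO is not given in the sources used here. The labels call these biological replicates without saying which mouse or mice a library came from, so p-values measure the spread between libraries.

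Between 16594228 and 26784003 reads were counted on genes per library, and 3 counts, the smallest signal taken as present, equalled between 0.103 and 0.201 normalized CPM (counts scaled to the TMM-adjusted library size). This floor covers counting error only. Markers of all leukocytes summed to between 11238 and 13647 CPM in the 12 CD45+ libraries and to between 190 and 6610 CPM in the 10 CD45- libraries, so that the CD45- sorts were not equally free of leukocyte transcripts. *Sp7* itself had 0 counts in the TdTOSX single positive and double positive libraries and at most 1 in any other, and was not detectable at this depth. The highest CD45- sum belonged to wild type double negative replicate 3. Wild type CD45 single positive replicate 2 also stood apart, with 3886 CPM of summed macrophage markers, against at least 12088 CPM in the other CD45+ libraries, and with 3450 CPM of B cell and 2048 CPM of T cell markers. *Cdh2* itself had between 4.52 and 9.14 CPM in the 5 wild type CD45- libraries and between 12.5 and 18.4 CPM in the 5 CD45- libraries labelled Cdh2-cKO. Counts over a whole gene include exons outside any deleted stretch and so do not check the deletion, and the libraries are therefore called by their label.

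The promoters of 3 members are shown because these genes differed between CD45+ and CD45- cells and carry a nuclear receptor sequence upstream of a RefSeq start. Each stretch holds the 250 bases before the transcription start in RefSeq, on GRCm38.p6 and on the minus strand, written 5′ to 3′, with the matched letters in capitals. The *Abca1* stretch is chr4:53159896-53160145, the *Plin2* stretch chr4:86670060-86670309 and the *Cd36* stretch chr5:17835897-17836146. This *Cd36* start lies inside the counted gene, which reaches to 17888959, and its use in these cells was not tested.
Abca1: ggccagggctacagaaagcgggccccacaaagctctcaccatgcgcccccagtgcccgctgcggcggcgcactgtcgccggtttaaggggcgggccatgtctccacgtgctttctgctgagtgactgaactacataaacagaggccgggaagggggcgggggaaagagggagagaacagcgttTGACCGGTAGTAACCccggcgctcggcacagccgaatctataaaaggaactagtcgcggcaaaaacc
Plin2: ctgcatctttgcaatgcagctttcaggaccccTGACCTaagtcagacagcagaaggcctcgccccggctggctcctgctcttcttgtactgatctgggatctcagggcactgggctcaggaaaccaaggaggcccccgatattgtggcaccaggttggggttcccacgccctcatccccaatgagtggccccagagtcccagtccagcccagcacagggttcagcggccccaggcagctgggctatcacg
Cd36: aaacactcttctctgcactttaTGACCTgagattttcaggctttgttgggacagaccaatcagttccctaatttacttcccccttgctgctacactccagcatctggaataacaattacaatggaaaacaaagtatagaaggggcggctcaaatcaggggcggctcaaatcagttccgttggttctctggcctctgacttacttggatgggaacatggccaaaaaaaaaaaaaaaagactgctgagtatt
The capitals in *Abca1* mark GGTTA and CGGTCA with 4 bases between them, read on the opposite strand, the repeat known to bind the oxysterol receptor LXR in this promoter. These letters were searched because of *Abca1* and were found in 4 of 32851 RefSeq windows (0.012%), each reaching from 250 bases before to 50 bases after a start. The capitals in *Plin2* and *Cd36* mark AGGTCA on the opposite strand, the hexamer that PPARs and other nuclear receptors contact, at -218 and -228 from the start. AGGTCA stood on either strand in 16.3% of all windows, so such a match is common. *Pparg*, which was not called, also held AGGTCA, at -28 and -9 from separate starts. *Apoe*, which was called, held no match in its windows. The matches thus did not follow the calls among the members with windows. Windows were found for 5 of the 9 members, and direct repeats of AGGTCA with 4 bases or 1 base between the copies, searched on both strands, were in none of the 9 windows of these 5 genes (0.015% and 0.04% of all windows). A match is a run of letters, and binding was not measured.

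Comparing both CD45+ populations with both CD45- populations asked how the lipid genes differ between leukocytes and the other cells of the tumor. Of the 9 members, 6 were higher in CD45+ cells (*Apoe*, *Abca1*, *Cd36*, *Abcg1*, *Fabp5* and *Plin2*), 1 was lower (*Fabp4*) and 2 were not called (*Lpl* and *Pparg*). A gene was called at an adjusted p of at most 0.05 from edgeR's quasi-likelihood test with Benjamini-Hochberg adjustment over all 15043 genes. This contrast called 63.7% of all genes, 32.6% higher and 31.1% lower, and the 7 of 9 members called are read against that share. The median log2 fold change was 1.17 over the members, the value of *Pparg*, which was not called, and 0.06 over all genes tested. Because the members were chosen with earlier results of these data known, the 2 medians are given as a description. Only *Abca1* and *Abcg1* separated the 12 CD45+ from the 10 CD45- libraries without overlap. How many of all genes do so was not counted, so this is a description. In bulk libraries, more cells of an expressing type and more RNA per cell cannot be told apart.

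**Figure D1:**
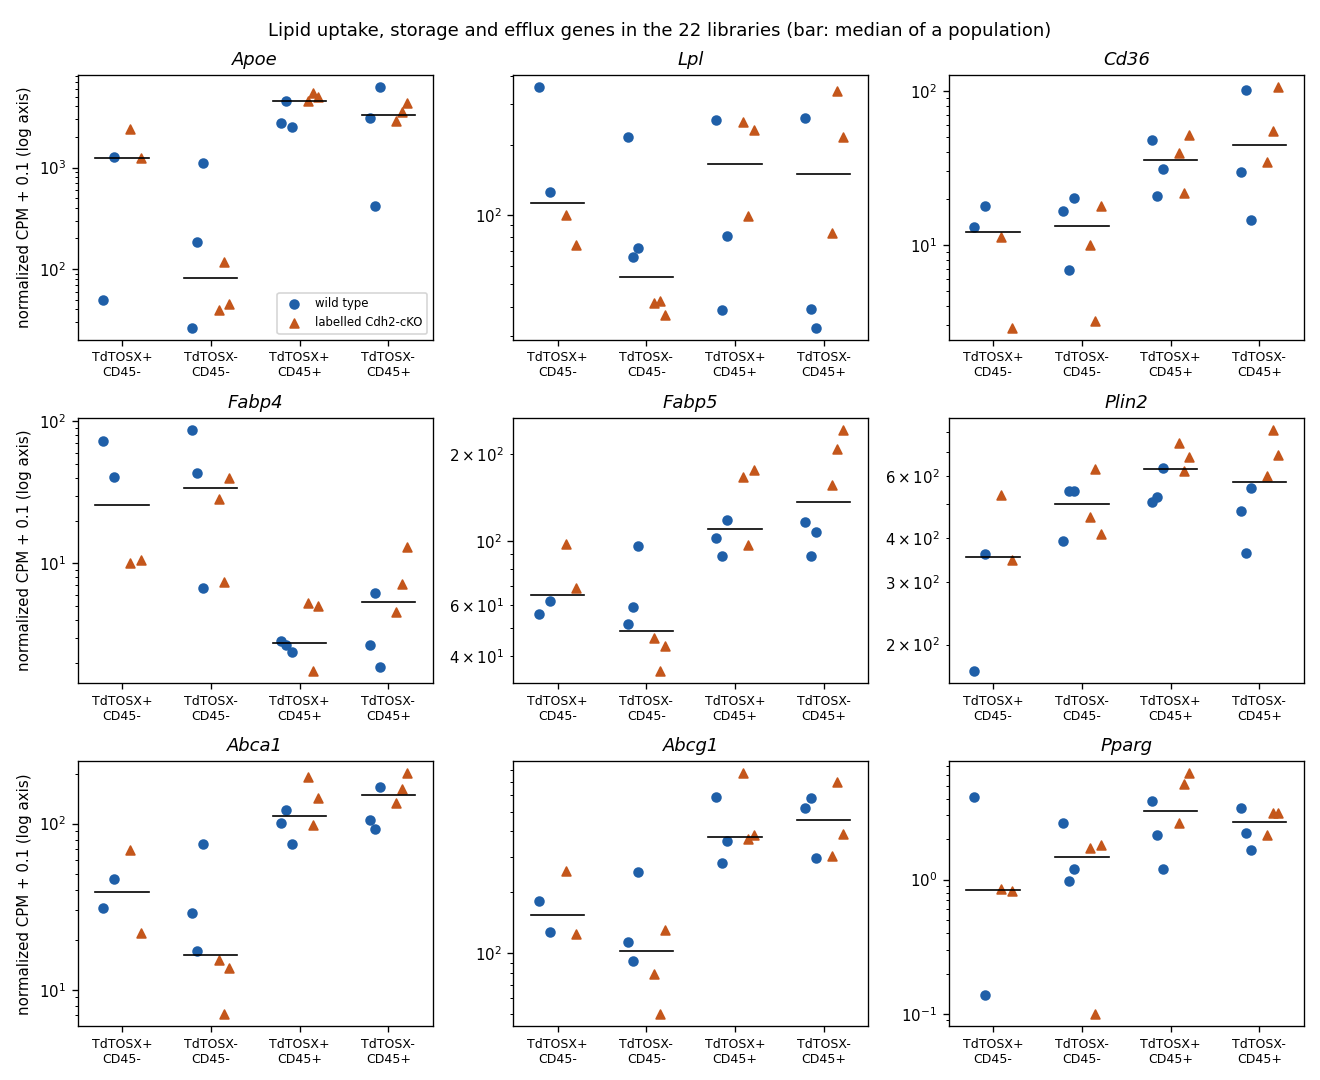
Normalized CPM (plus 0.1, log axis) of the 9 members in each of the 22 libraries, by sorted population, with circles for wild type libraries, triangles for libraries labelled Cdh2-cKO and a bar at the median of each population. *Abca1* and *Abcg1* are higher in every CD45+ library than in every CD45- library, *Fabp4* is lower in most of them, and *Apoe* spreads from 26.3 to 2388 CPM among the CD45- libraries.

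Among the genes of uptake, *Lpl* (ENSMUSG00000015568, chromosome 8 of GRCm38 from 68880491 to 68907448) encodes lipoprotein lipase, which releases fatty acids from triglyceride-rich lipoproteins. It had 73.7, 99.3, 124.7 and 357 CPM in the 4 TdTOSX single positive libraries. In double negative cells it lay between 36.9 and 216 CPM (median 53.8), in double positive cells between 38.6 and 257.5 CPM (median 165) and in CD45 single positive cells between 32.3 and 343 CPM (median 150). The 4 populations overlapped, and libraries of 1 group differed severalfold, such as 261, 39.1 and 32.3 CPM in the wild type CD45 single positive replicates 1 to 3. Over both genotypes the log2 fold change between CD45+ and CD45- cells was 0.64 (SE 0.42, adjusted p = 0.198 from edgeR's test). It was -0.51 (SE 0.59, adjusted p = 0.488) within wild type and 1.79 (SE 0.63, adjusted p = 0.0237) within the libraries labelled Cdh2-cKO, but the difference between these, 2.31 (SE 0.85), had an adjusted p of 0.602. The call in the libraries labelled Cdh2-cKO was lost without TdTOSX single positive replicate 1 (adjusted p = 0.0629), TdTOSX single positive replicate 2 (0.0983) or CD45 single positive replicate 2 (0.0575), while the wild type value became -1.33 (adjusted p = 0.0443) without wild type CD45 single positive replicate 1.

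*Cd36* (ENSMUSG00000002944, chromosome 5 from 17781690 to 17888959) encodes the scavenger receptor that takes up oxidized lipoproteins and long-chain fatty acids. It lay between 14.5 and 106.6 CPM (median 37.0) in the 12 CD45+ libraries and between 2.78 and 19.99 CPM in the 10 CD45- libraries. The sides overlapped through 1 CD45+ library, wild type CD45 single positive replicate 3 at 14.5 CPM. The highest wild type value, 101.5 CPM, was that of the lymphocyte-rich CD45 single positive replicate 2. The log2 fold change of 1.99 (SE 0.40, adjusted p = 0.000355, edgeR) corresponded to a 3.97-fold higher level in CD45+ cells. Without both libraries that stood apart the call for both genotypes held, while that within wild type (1.43, SE 0.56, adjusted p = 0.0398) fell to 0.96 with an adjusted p of 0.129. The wild type call was also lost without any of 7 wild type libraries (TdTOSX single positive replicate 1 or 2, double positive replicate 1 or 3, CD45 single positive replicate 2, double negative replicate 1 or 2), with adjusted p between 0.0534 and 0.154.

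*Fabp4* (ENSMUSG00000062515, chromosome 3 from 10204347 to 10208576), the fatty acid binding protein of adipocytes, capillary endothelium and some macrophages, was the member that was lower in CD45+ cells. The wild type CD45- libraries had 72.3 and 40.6 CPM (TdTOSX single positive) and 86.9, 43.3 and 6.66 CPM (double negative). The CD45- libraries labelled Cdh2-cKO had 9.90 and 10.4 CPM (TdTOSX single positive) and 28.3, 7.27 and 39.7 CPM (double negative). The CD45+ libraries lay between 1.65 and 12.9 CPM with a median of 3.59, so that a few libraries of either side overlapped. The lowest wild type CD45- value was that of double negative replicate 3, the library richest in leukocyte transcripts. The log2 fold change was -2.80 (SE 0.40, adjusted p = 1.06e-05, edgeR) over both genotypes, a 6.95-fold lower level. It was -4.09 (SE 0.59, adjusted p = 2.59e-05) within wild type and -1.50 (SE 0.54, adjusted p = 0.0282) within the libraries labelled Cdh2-cKO, and the difference of 2.59 (SE 0.78) between these values did not pass the test (adjusted p = 0.561). Leaving out any of 6 libraries labelled Cdh2-cKO (TdTOSX single positive replicate 1 or 2, CD45 single positive replicate 1 or 2, double positive replicate 2, double negative replicate 3) raised the adjusted p within them to between 0.0534 and 0.0765.

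Of 8 adipocyte markers, those that define the cell were at or near 0. *Adipoq* did not exceed 1.83 CPM and had no count in 12 of 22 libraries, *Plin1* did not exceed 0.117 CPM and was at 0 in 14, and *Lep* was at 0 in 18. *Cidec*, *Pck1* and *Retn* did not exceed 1.06 CPM and *Cfd* reached 6.04 CPM, while *Lipe*, a lipase that other cells also express, had between 1.10 and 13.8 CPM and no library at 0. The list summed to between 8.29 and 14.9 CPM in CD45+ and to between 1.38 and 12.1 CPM in CD45- libraries. Endothelial markers, 8 genes that include *Pecam1*, *Cdh5* and *Emcn*, summed to between 52.5 and 594 CPM in the CD45- libraries and to between 10.6 and 218 CPM in the CD45+ libraries. The second highest CD45+ sum was 38.4 CPM, and 218 CPM belonged to the lymphocyte-rich library. *Fabp4* moved with these markers, and with fibroblast markers, also within groups. The correlation of deviations from the group mean over 22 libraries was 0.68 with each of the lists and -0.69 with macrophage markers, as a description over values that share their libraries. The part of endothelial cells in the level of *Fabp4* was not tested.

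*Fabp5* (ENSMUSG00000027533, chromosome 3 from 10012548 to 10016607), a fatty acid binding protein made by many cells, macrophages included, went the other way. It lay between 89.0 and 242 CPM (median 118) in CD45+ cells and between 35.5 and 97.9 CPM (median 57.6) in CD45- cells. The overlap came from the CD45- libraries with 96.1 CPM (wild type double negative replicate 3) and 97.9 CPM (TdTOSX single positive replicate 1 labelled Cdh2-cKO), which also had the highest leukocyte marker sums of the CD45- side, 6610 and 4541 CPM. In CD45+ cells it was higher by 1.12 on the log2 scale (SE 0.14, adjusted p = 3.38e-06, edgeR), a 2.18-fold higher level. The annotation holds a processed pseudogene named for it, *Fabp5l2*, and reads that align to more than 1 place were not counted, so the level of *Fabp5* is uncertain.

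The droplet coat gene *Plin2* (ENSMUSG00000028494, chromosome 4 from 86648386 to 86670060) was abundant in every population and differed least of the members. Its CD45+ libraries lay between 364 and 810 CPM (median 610) and its CD45- libraries between 168 and 630 CPM (median 435), and the sides overlapped broadly. The log2 fold change of 0.53 (SE 0.15, adjusted p = 0.00451, edgeR) was a 1.44-fold higher level. With double negative cells alone as the CD45- side and without wild type double negative replicate 3, an alternative chosen after seeing the data, it was 0.22 with an adjusted p of 0.326. Within TdTOSX single positive cells the wild type libraries had 168 and 361 CPM and those labelled Cdh2-cKO 530 and 348 CPM. By mean RPKM, which is CPM per kilobase of gene, *Plin2* ranked between 428 and 603 among 15043 genes in the 4 populations.

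Among the genes of efflux, *Abca1* (ENSMUSG00000015243, chromosome 4 from 53030787 to 53159895) encodes the transporter that loads cholesterol onto lipid-poor apolipoproteins. In CD45- cells it had 30.9 and 46.1 CPM (wild type) and 69.6 and 21.8 CPM (labelled Cdh2-cKO) in the TdTOSX single positive libraries. The double negative libraries had 28.7, 17.0 and 75.0 CPM (wild type) and 14.98, 7.03 and 13.4 CPM (labelled Cdh2-cKO). All CD45+ libraries lay higher, between 75.6 and 201 CPM with a median of 127, although the gap to the highest CD45- library, the leukocyte-rich double negative replicate 3, was small. Its log2 fold change was 2.10 (SE 0.28, adjusted p = 4.65e-06, edgeR), a 4.30-fold higher level.

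*Abcg1* (ENSMUSG00000024030, chromosome 17 from 31057698 to 31115777), which passes cholesterol on to mature high density lipoprotein, lay between 280 and 772 CPM (median 384) in CD45+ cells. In CD45- cells it lay between 50.01 and 255 CPM (median 125). The highest CD45- values, 255 CPM in TdTOSX single positive replicate 1 labelled Cdh2-cKO and 252 CPM in wild type double negative replicate 3, came again from the libraries with the most leukocyte transcripts. Over all 22 libraries, however, deviations from the group mean correlated at only 0.09 with macrophage markers and 0.33 with markers of all leukocytes. The part of leukocytes in the level of *Abcg1* was not tested. Over all populations, CD45+ cells exceeded CD45- cells by 1.71 on the log2 scale (SE 0.27, adjusted p = 2.93e-05, edgeR), a 3.28-fold higher level.

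*Apoe* (ENSMUSG00000002985, chromosome 7 from 19696109 to 19699166), the apolipoprotein that macrophages secrete as a cholesterol acceptor, had the largest rise of the members. The wild type double positive libraries had 2756, 4525 and 2488 CPM and those labelled Cdh2-cKO 4573, 5427 and 4987 CPM. The wild type CD45 single positive libraries had 3083, 418 and 6240 CPM and those labelled Cdh2-cKO 2884, 3517 and 4306 CPM. All but 1 of the CD45+ libraries thus lay between 2488 and 6240 CPM, and the exception was the lymphocyte-rich library. In TdTOSX single positive cells, *Apoe* had 49.4 and 1263 CPM (wild type) and 2388 and 1230 CPM (labelled Cdh2-cKO). In double negative cells it had 26.3, 184.5 and 1100 CPM (wild type) and 39.5, 117 and 44.7 CPM (labelled Cdh2-cKO). The log2 fold change between CD45+ and CD45- cells was 3.10 (SE 0.63, adjusted p = 0.000378, edgeR), an 8.58-fold higher level. By mean RPKM, *Apoe* was gene 27 of 15043 in double positive, 35 in CD45 single positive, 68 in TdTOSX single positive and 480 in double negative cells. It ranked first of the members in all but the double negative cells, where *Plin2* came before it.

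The CD45- libraries high in *Apoe* were also high in macrophage transcripts. A list of 9 macrophage markers, among them *Adgre1*, *Csf1r* and *C1qa*, summed to 87.7 and 2510 CPM in the wild type and to 6670 and 2409 CPM in the Cdh2-cKO-labelled TdTOSX single positive libraries. In double negative cells the sum was 117, 1423 and 9071 CPM (wild type) and 236, 335 and 198 CPM (labelled Cdh2-cKO). All 9 markers had counts in every library. Over the 22 libraries, deviations of *Apoe* from its group mean correlated with those of this sum at 0.95, the libraries being what the values share. For the other members this correlation was 0.76 (*Plin2*), 0.53 (*Fabp5*), 0.49 (*Abca1*) and 0.09 (*Abcg1*). It was -0.05 for *Cd36*, -0.32 for *Lpl*, -0.56 for *Pparg* and -0.69 for *Fabp4*. The part of leukocytes in the levels of these members was not tested either. How much of the *Apoe* in CD45- libraries came from leukocytes was not tested.

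**Figure D2:**
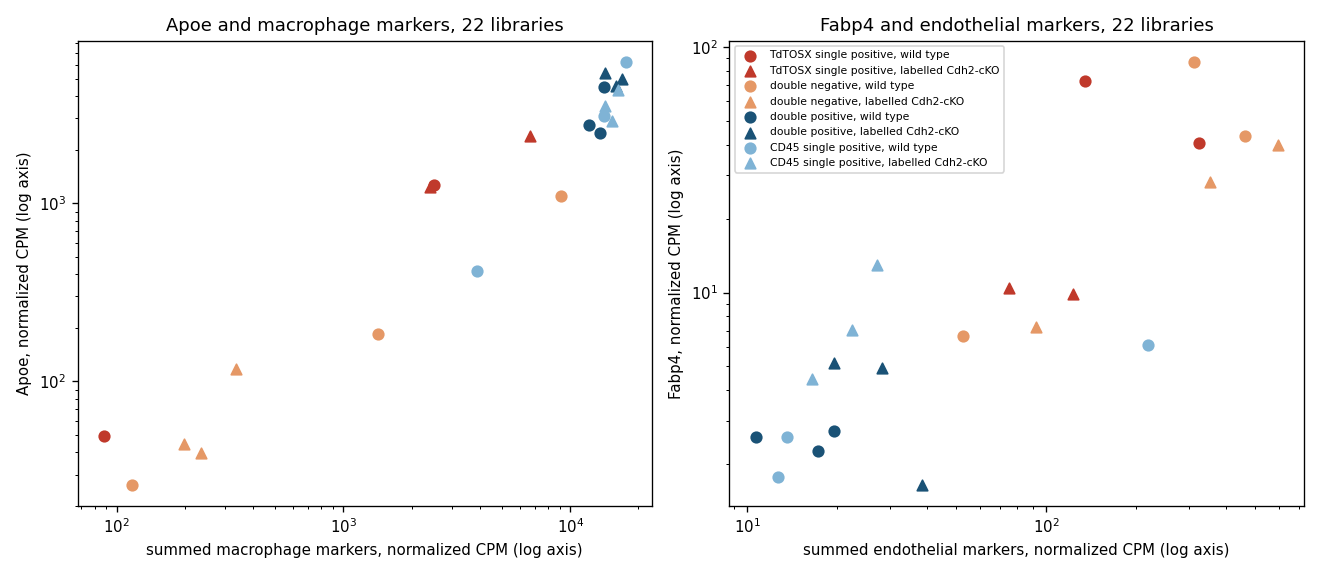
Normalized CPM of *Apoe* against the summed macrophage markers (left) and of *Fabp4* against the summed endothelial markers (right) in the 22 libraries, log axes, with color for the population and circles for wild type and triangles for libraries labelled Cdh2-cKO. The CD45- libraries with the lowest macrophage sums, 87.7 and 117 CPM, have 49.4 and 26.3 CPM of *Apoe*, those with sums of 2409 CPM or more have 1100 CPM or more, and the CD45 single positive library at 418 CPM has the lowest macrophage sum of the CD45+ side.

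*Pparg* (ENSMUSG00000000440, chromosome 6 from 115361221 to 115490401), the fatty acid-sensing nuclear receptor, was the least abundant member, at rank 8918 to 12065 of 15043 by mean RPKM. CD45+ libraries had between 1.11 and 6.07 CPM (median 2.77) and CD45- libraries between 0 and 4.03 CPM (median 0.986). Double negative replicate 2 labelled Cdh2-cKO had no count, which allows a level of up to 3 counts, and wild type TdTOSX single positive replicate 2 had 0.0387 CPM, under the floor. The wild type TdTOSX single positive replicate 1, in contrast, held 4.03 CPM, the highest value of the CD45- side. The log2 fold change of 1.17 (SE 0.56) had an adjusted p of 0.0771 with edgeR. It was 2.54 with an adjusted p of 0.00155 without wild type TdTOSX single positive replicate 1, and 2.27 (adjusted p = 0.0053) with limma's voom on all libraries, so whether *Pparg* was called depended on 1 library and on the test.

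Within genotypes, 6 members were called in wild type (5 higher, 1 lower) and 8 in the libraries labelled Cdh2-cKO (7 higher, 1 lower). Over all genes, 51% were called in wild type (25.3% higher, 25.7% lower) and 50.6% in the libraries labelled Cdh2-cKO (23.6% higher, 27% lower). The count was 5 to 7 in wild type and 5 to 9 in the libraries labelled Cdh2-cKO in fits that each left out a library. It fell to 5 in the latter without TdTOSX single positive replicate 2 or CD45 single positive replicate 2 labelled Cdh2-cKO. Whether the CD45 difference itself differed between the genotypes was tested by the interaction. It called 0 of 9 members and 0% of all genes with edgeR, its smallest adjusted p over the members was 0.561, and 4 members had an unadjusted p under 0.05, as had 7.69% of all genes.

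**Figure D3:**
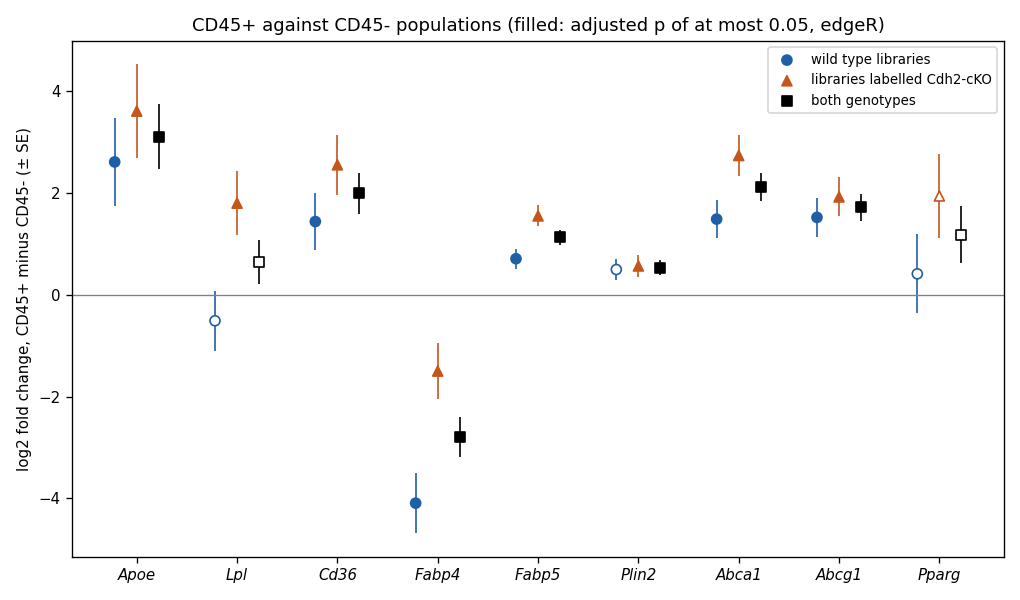
Log2 fold change between CD45+ and CD45- cells (± SE) for the 9 members, in wild type libraries (circles), in libraries labelled Cdh2-cKO (triangles) and over both genotypes (squares), filled where edgeR's adjusted p was at most 0.05. Only *Fabp4* lies below 0 in all 3 fits, and *Lpl* has an open circle below 0 and a filled triangle at 1.79.

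The double positive cells, which carry both TdTOSX and CD45, were then compared with the CD45 single positive cells. None of the 9 members passed the test, with 0 called by edgeR, voom or DESeq2 and 0 with an unadjusted p under 0.05, against 0.00665% of all genes called. The log2 fold changes ran from -0.76 (*Fabp4*, SE 0.53) to 0.37, and each adjusted p was 0.9999. For *Cd36* the value was -0.67 (SE 0.50), with double positive libraries between 20.6 and 51.4 CPM and CD45 single positive libraries between 14.5 and 106.6 CPM. Without wild type CD45 single positive replicate 2, the lymphocyte-rich library, this value was -0.098 and that of *Fabp4* -0.42. Without both libraries that stood apart, 0 members were called as well. The standard errors, 0.19 to 0.74 on the log2 scale, set the size of difference that these libraries could show.

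Comparing TdTOSX single positive with double negative cells asked whether the Osx lineage differs from the rest of the CD45- cells. None of the 9 members passed edgeR's test, against 1.89% of all genes, and 3 had an unadjusted p under 0.05, as had 18.99% of all genes. These were *Apoe* with a log2 fold change of 2.67 (SE 0.84, adjusted p = 0.0986), *Abca1* with 0.95 (SE 0.38, adjusted p = 0.185) and *Plin2* with -0.54 (SE 0.22, adjusted p = 0.188). *Apoe* was called with voom (2.77, adjusted p = 0.0349) and with DESeq2 (2.68, adjusted p = 0.0135). Without wild type double negative replicate 3, edgeR called *Apoe* at 3.70 (adjusted p = 0.0207) and *Abca1* at 1.35 (adjusted p = 0.0301), and without wild type TdTOSX single positive replicate 2 it called *Plin2* at -0.87 (adjusted p = 0.0444). Other libraries moved the values toward 0. *Apoe* fell to 0.81 (adjusted p = 0.592) without wild type TdTOSX single positive replicate 2, *Abca1* to 0.41 (adjusted p = 0.624) without TdTOSX single positive replicate 1 labelled Cdh2-cKO, and *Plin2* went to -0.32 (adjusted p = 0.493) without wild type TdTOSX single positive replicate 1.

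The genotypes were uneven in this comparison. *Apoe* had a log2 fold change of 0.59 (SE 1.17, adjusted p = 0.817) within wild type and of 4.75 (SE 1.27, adjusted p = 0.121) within the libraries labelled Cdh2-cKO, and the difference of 4.17 (SE 1.74) had an adjusted p of 0.378. *Abca1* had -0.06 (SE 0.54) and 1.955 (SE 0.54), with a difference of 2.02 (SE 0.78, adjusted p = 0.304), and *Plin2* -0.90 (SE 0.31) and -0.19 (SE 0.31). No member passed edgeR's test within either genotype or for the difference between them. Macrophage markers were uneven in the same way. Their sum had a median of 1299 CPM in TdTOSX single positive and 1423 CPM in double negative cells of wild type, and of 4539 and 236 CPM in the libraries labelled Cdh2-cKO. Their part in the *Apoe* values was not tested.

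Of the other members, over both genotypes, *Lpl* had a log2 fold change of 1.07 (SE 0.61, adjusted p = 0.351), *Abcg1* 0.57 (SE 0.38), *Fabp5* 0.39 (SE 0.21), *Fabp4* -0.50 (SE 0.57), *Cd36* -0.23 (SE 0.57) and *Pparg* -0.08 (SE 0.82), the adjusted p of these 6 lying between 0.317 and 0.971 with edgeR. Fibroblast collagens and other fibroblast markers summed to between 13757 and 59753 CPM in TdTOSX single positive and to between 4276 and 32212 CPM in double negative cells. Keratins and other luminal epithelial markers summed to between 33.9 and 933 CPM in the former and to between 505 and 1994 CPM in the latter. By the study's text GFP-labeled tumor cells were separated before the sort, whether any remained in the double negative cells was not tested, and the lipid genes are given per sort, not per cell type.

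By median, the order of the populations put double positive first for *Apoe*, *Lpl*, *Plin2* and *Pparg*, CD45 single positive first for *Fabp5*, *Cd36*, *Abca1* and *Abcg1*, and double negative first for *Fabp4*. Neighbors in this order overlapped in all but 3 of the 27 steps, and the share of such steps over all genes was not counted. The steps without overlap were those from double positive cells to the higher of the CD45- populations for *Abca1* (111 against 38.5 CPM) and *Abcg1* (374 against 154 CPM), and to double negative cells for *Cd36* (35.5 against 13.2 CPM). These medians are levels of 1 gene across populations and are not compared between genes.

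Between the genotypes, with the *Cdh2* counts above in mind, 0 of the 9 members were called by edgeR in any population. Over all genes, 0.00665% were called in TdTOSX single positive cells and 0% in each of the other populations. Of all genes, double positive cells had 3.42% with an unadjusted p under 0.05, double negative cells 9.59%, CD45 single positive cells 9.83% and TdTOSX single positive cells 10.5%. In double positive cells 0 members had one, and the values ran from 0.17 to 0.98 (*Pparg*, SE 1.02). In TdTOSX single positive cells 2 members had one, *Fabp4* at -2.47 (SE 0.92, adjusted p = 0.397) and *Plin2* at 0.73 (SE 0.34, adjusted p = 0.467). In CD45 single positive cells 2 had one, *Fabp5* at 0.95 (SE 0.26, adjusted p = 0.416) and *Plin2* at 0.59 (SE 0.27, adjusted p = 0.5). In double negative cells 3 had one, *Abca1* at -1.77 (SE 0.50, adjusted p = 0.18), *Apoe* at -2.70 (SE 1.12, adjusted p = 0.388) and *Fabp5* at -0.73 (SE 0.26, adjusted p = 0.271).

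The values by library were as follows for 3 of these members. The share of all genes that separate the genotypes without overlap was not counted, so the separations given here are a description. *Fabp5* in CD45 single positive cells had 117, 89.1 and 107 CPM in wild type and 156, 207 and 242 CPM in the libraries labelled Cdh2-cKO, without overlap. *Fabp4* in TdTOSX single positive cells had 72.3 and 40.6 CPM against 9.90 and 10.4 CPM, also without overlap but with 2 libraries a side. Pericyte markers, 1543 and 1239 against 281 and 471 CPM, fibroblast markers, 59753 and 32090 against 13757 and 28533 CPM, and endothelial markers, 135 and 323 against 123 and 74.7 CPM, were also lower in the libraries labelled Cdh2-cKO. Luminal epithelial markers, 33.9 and 566 against 933 and 928 CPM, and leukocyte markers, 219 and 1810 against 4541 and 2031 CPM, were higher in them. Macrophage markers had 87.7 and 2510 against 6670 and 2409 CPM. The part of these cell types was not tested. In double negative cells, *Abca1* did not overlap either. Leukocyte markers summed to 190, 987 and 6610 CPM in the wild type replicates 1 to 3 and to between 344 and 451 CPM in the libraries labelled Cdh2-cKO. *Abca1* was also highest in wild type replicate 3. In wild type replicate 1, with the lowest leukocyte sum, *Abca1* exceeded every library labelled Cdh2-cKO. That library also had 32212 CPM of fibroblast markers, against between 9043 and 14574 CPM in the libraries labelled Cdh2-cKO. The part of leukocytes and of fibroblasts was not tested. DESeq2 called 1 member here, *Abca1* at -1.69 (adjusted p = 0.0208), and voom called 0. Without wild type double negative replicate 3, the *Apoe* and *Abca1* values were the nearest to 0 of all fits that left out a library, -0.64 and -0.93.

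Other genes of the same route were counted from a list of 72, of which 60 were tested. In CD45+ against CD45- cells, 28 were higher, 13 lower and 19 not called, with a median log2 fold change of 0.42. Together these lie near the 63.7% of all genes called, and the counts by class are a description. Of the genes of uptake and lipolysis, 7 of 19 were higher and 5 lower. *Olr1* and *Fabp7*, a receptor for oxidized low density lipoprotein and a fatty acid binding protein, were each higher by 3.41 (SE 0.56 and 0.58). *Vldlr*, a receptor for triglyceride-rich lipoproteins, was lower, at -6.07 (SE 0.44), and so was *Gpihbp1*, which holds lipoprotein lipase on capillary endothelium, at -5.46 (SE 0.60). The median of *Vldlr* was 0.089 CPM in CD45+ libraries, under the floor, and 7.73 CPM in CD45- libraries. That of *Fabp7* was 3.58 CPM in CD45+ and 0.409 CPM in CD45- libraries, so the sizes of both changes are uncertain. *Gpihbp1* had between 0.388 and 4.803 CPM in CD45+ and between 10.4 and 209.6 CPM in CD45- libraries, without overlap. It is also on the list of endothelial markers.

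Of the storage and mobilization genes, 10 of 18 were higher and 3 lower. *Dgat2*, which makes triglyceride, rose by 2.57 (SE 0.40), and *Soat2*, which esterifies cholesterol, by 1.97 (SE 0.35). *Mgll*, monoacylglycerol lipase, was lower, at -4.67 (SE 0.62), as was *Fitm2*, a protein of droplet formation, at -1.45 (SE 0.15). *Mgll* had a median of 0.416 CPM in CD45+ libraries and *Soat2* one of 0.726 CPM in CD45- libraries, so the sizes of these changes rest on low counts. Of the genes of efflux, sterol transport and control, 11 of 23 were higher and 5 lower. *Cyp27a1*, which makes 27-hydroxycholesterol, was higher by 2.96 (SE 0.37) and *Cebpa*, a transcription factor of myeloid cells and adipocytes, by 2.28 (SE 0.31). The lipogenic enzymes *Scd1* and *Fasn* were lower, at -1.98 (SE 0.53) and -1.05 (SE 0.12). *Scd1* had a median of 4.63 CPM in CD45+ libraries, but its highest CD45+ library had 260.7 CPM. Its CD45- libraries lay between 25.9 and 67.0 CPM. Each of these 12 genes had an adjusted p of at most 0.00334 with edgeR. Within wild type 23 of the 60 were higher and 9 lower, and within the libraries labelled Cdh2-cKO 23 were higher and 10 lower. Of all genes, 51% were called within wild type and 50.6% within the libraries labelled Cdh2-cKO. Between TdTOSX single positive and double negative cells 0 of the 60 were called by edgeR (smallest adjusted p 0.0512), 2 by voom, 5 by DESeq2, 8 without both libraries that stood apart and up to 4 with 1 library left out (wild type CD45 single positive replicate 2). Of all genes edgeR called 1.89% there. Voom, DESeq2 and the fit without both libraries also called more of all genes, so these pathway counts are a description. Between the genotypes edgeR called 0 in each population, but in double negative cells DESeq2 called 7 and edgeR 8 without wild type double negative replicate 1. Of all genes edgeR called 0% in double negative cells, and 603 genes without that library. Between double positive and CD45 single positive cells edgeR called 0 and DESeq2 1.

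**Figure D4:**
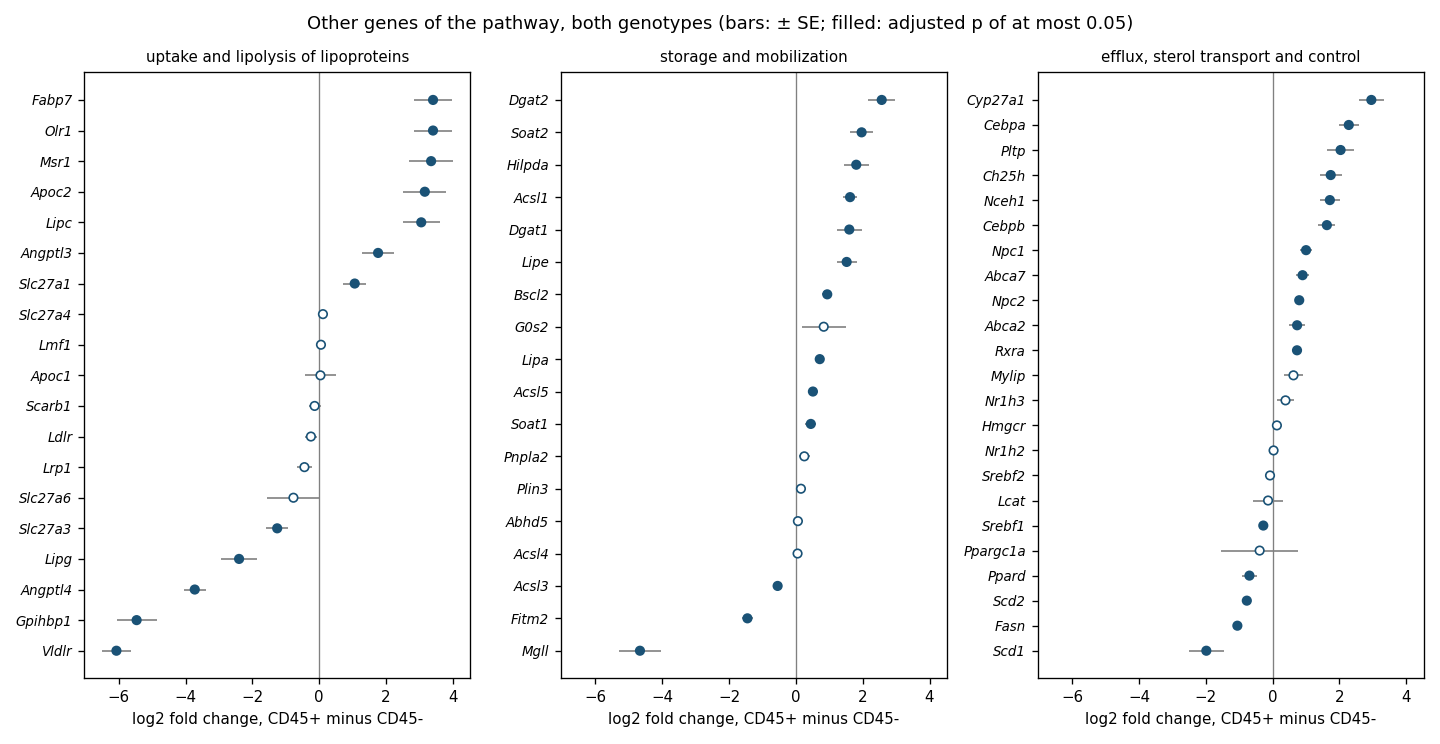
Log2 fold change (± SE) between CD45+ and CD45- cells over both genotypes for the 60 other genes of the route that were tested, in 3 classes, filled where edgeR's adjusted p was at most 0.05. Each class holds genes on either side of 0, from *Vldlr* at -6.07 to *Fabp7* at 3.41. The median of *Vldlr* in CD45+ libraries lay under the floor.

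Finally, each member was set beside the genes whose values were most like its own. Likeness was the Pearson correlation of deviations of log2 CPM from the group mean over 22 libraries, among 8452 genes with a mean of at least 10 CPM, and in groups of 2 libraries the deviations mirror each other. *Apoe* was most like *Cx3cr1* (0.98), *C1qa* (0.98) and *C1qc* (0.97), which are genes of macrophages. *Fabp4* was most like *Ednrb* (0.90), *Mfap4* (0.89) and *Morf4l1* (0.88), *Abca1* like *Nampt* (0.90) and *Abcg1* like *Pim1* (0.92). *Plin2* was most like *Eps8* (0.93), *Lpl* like *Zswim4* (0.90), *Fabp5* like *Anxa4* (0.89), *Cd36* like *Pcgf5* (0.88) and *Pparg* like *Bmt2* (0.83). Among the members themselves the closest pair was *Apoe* with *Plin2* (0.79), followed by *Fabp5* with *Abca1* (0.70) and *Cd36* with *Abcg1* (0.69). The most opposed pairs were *Pparg* with *Plin2* (-0.76) and *Apoe* with *Fabp4* (-0.73). These are the highest of many correlations over few libraries, which share their cell content, and are given as a description.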

How the data were processed

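RNA from 22 sorted libraries was amplified with a SMARTer kit and sequenced. Per the labels and the methods, the authors aligned reads with STAR 2.0.4b to GRCm38 and counted uniquely aligned, unambiguous reads per Ensembl gene with featureCounts of Subread (1.45 in the labels). The deposited counts are whole and not normalized. The deposited CPM are the authors' counts scaled to a library's total and the deposited RPKM the same per kilobase. Both were compared with the counts and not used further. Use of strand in counting is not given in the sources used here, so overlapping genes cannot be told apart.

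Counts were analysed here in R 4.3.3. Genes above 1 CPM in 2 or more libraries were kept, except the 355 of rRNA. TMM factors (0.809 to 1.21) were applied, and edgeR 4.0.16 fitted 1 mean per population and genotype over the 22 libraries with glmQLFit and glmQLFTest, without a replicate block. SE were derived from the test. Log2 CPM for correlations used a prior count of 2. The fit was tested on simulated data. Replicates of a group differed by 49.7 to 409 times the counting variance, so none was deposited more than once.

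The members and the lists of pathway and marker genes were chosen with earlier results of these data known. Named were the 9 members, the 3 genes most like each member, and the pathway genes with the largest changes per class and direction, up to 2 each, with *Cdh2* and CD45 as checks. Marker genes named beside their lists serve as examples, and *Pecam1*, *Cdh5*, *Emcn*, *Adgre1* and *Csf1r* are among them. The alternatives were limma 3.58.1 (voom), DESeq2 1.42.0, RLE factors, no filter on low counts, a replicate block, a log2 fold change of at least 2 for a call, leaving out each library, and leaving out wild type CD45 single positive replicate 2 with wild type double negative replicate 3. Double negative cells alone as the CD45- side was added after seeing the data.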

Additional observations from a re-analysis of the deposited data

How the results depend on the processing

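Of the 7 members called between CD45+ and CD45- cells, 7 were called with DESeq2, RLE factors, no filter and without both libraries that stood apart, 8 with voom or a replicate block, 6 with double negative cells alone as the CD45- side and without wild type double negative replicate 3, 7 to 8 with each library left out, and 3 where a call also needed a log2 value of 2. Between TdTOSX single positive and double negative cells, where edgeR called 0, voom and DESeq2 each called 1, the fit without both libraries 2, and fits without 1 library 0 to 2. Over all genes this contrast called 284 with edgeR, 710 with voom, 986 with DESeq2, 92 without the filter, 187 with the block, 1509 without both libraries and 30 to 872 with a library left out. *Cd36* turned from -0.23 to 0.26 there with voom and ran from -0.89 to 0.11 with a library left out, and *Pparg* ran from -2.82 to 0.42. *Pparg* between CD45 sides of wild type ran from -0.094 to 3.15. Over all genes the comparison of CD45 sides called 9583 of 15043 with edgeR (63.7%), and its counts of members are read against that share. The share of all genes called with a log2 value of 2 or more was not counted. Between the genotypes in double negative cells DESeq2 called 1 member and 531 genes in all (29 higher, 502 lower), where edgeR called 0 genes, or up to 603 with a library left out (wild type double negative replicate 1). In TdTOSX single positive cells DESeq2 called 137 genes (109 higher, 28 lower) and edgeR 1, or 68 without both libraries and 0 to 89 with a library left out. In CD45 single positive cells DESeq2 called 33 genes and edgeR 0. Counts of members were 0 under every alternative run in the other 3 genotype comparisons and between the CD45+ populations. Replicate numbers were not shown to pair the libraries. Same-numbered libraries of a genotype correlated in their deviations between -0.29 and 0.59 (median 0.052, 30 pairs, 10 of them over 0.1). Libraries of different number correlated between -0.59 and 0.43 (median -0.021, 60 pairs). Of 22 libraries, 14 correlated best with their own number, and the count to be met by chance was not worked out. Libraries sorted from the same tumors may depend on each other, which the fit without a block does not model. With the replicate block, *Pparg* was called between CD45 sides (1.43, adjusted p = 0.0407, edgeR), and members called in the TdTOSX and genotype comparisons stayed at 0. Groups of 2 or 3 libraries, unequal leukocyte content of the CD45- sorts and amplified cDNA limit what can be shown, and low counts limit *Pparg*. A fit that leaves a group with 1 library assumes that this library varies like the others.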

Other observations

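Some genes of the route outside the naming rule are given with their values, having been chosen after these were seen. The scavenger receptor *Msr1* had between 497 and 2349 CPM in CD45+ and between 6.33 and 923 CPM in CD45- libraries, with a log2 fold change of 3.35 (SE 0.65, adjusted p = 0.000239, edgeR). The genes of the oxysterol receptors known to act on *Abca1* and *Abcg1* did not pass the test. *Nr1h3* (LXRα) had a log2 fold change of 0.39 (SE 0.26, adjusted p = 0.197) and *Nr1h2* (LXRβ) of 0.03 (SE 0.11, adjusted p = 0.832) in the same test.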
